A study of Mus musculus with 32 samples.

Results

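Among 32 RNA sequencing libraries of mouse subcutaneous white fat, 7 held RNA of skeletal muscle genes at levels far above the others. They were chosen by their high values of skeletal muscle markers, for which Acta1, Ckm, Myh4 and Eno3 stand, and were compared with the other 17 libraries taken at the same times of day, allowing for surgery and time. All animals were C57BL/6J mice, and fat was taken 9 days after vertical sleeve gastrectomy (VSG, removal of most of the stomach) or a sham operation at zeitgeber time ZT1, ZT7, ZT13 or ZT19 (hours after lights on), with 4 animals in each group of surgery and time. All animals were fed a liquid diet before and after the operation and were then offered a high-fat diet as well; the labels used here give no age. The 7 libraries were sham ZT1 replicate 4, VSG ZT1 replicate 2, sham ZT13 replicate 2, VSG ZT13 replicate 3, and VSG ZT19 replicates 1, 2 and 4, and values of the 7 are given in this order throughout. None of the 4 sham libraries of ZT19 and none of the 8 libraries of ZT7 belonged to them. Because muscle levels chose the 7, their differences from the 17 are descriptions and carry no p-value.

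Skeletal muscle fibres contract when a nerve impulse releases calcium from the sarcoplasmic reticulum and the troponin complex lets myosin pull on actin. Fast fibres use the myosin heavy chains Myh4, Myh1 and Myh2 and rebuild ATP largely from phosphocreatine and glycogen, whereas slow fibres use Myh7 and rely more on oxidation. White fat is built of adipocytes with vessels, nerves, macrophages and stroma, and in the mouse the subcutaneous pads lie next to skin and to sheets of muscle. In whole tissue, more cells of a type and more RNA per cell cannot be told apart.

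The upstream regions of the 4 marker genes are shown for letters that muscle regulators are known to bind, which 3 of the 4 regions hold. MyoD and its relatives bind E-boxes such as CAGCTG, MEF2 factors bind AT-rich sites of which CTANNNNTAG is a simplified form, and TATAAA is the core of the TATA box. The 250 bases before the annotated start are printed from RefSeq (GRCm38.p6), 5′ to 3′ on the strand of the gene, with matches to these letters on either strand in capitals; none of the 4 held CTANNNNTAG, and the region of Eno3 held none of the 3.

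Ckm, the creatine kinase of muscle (chr7:19410844-19411093, plus strand): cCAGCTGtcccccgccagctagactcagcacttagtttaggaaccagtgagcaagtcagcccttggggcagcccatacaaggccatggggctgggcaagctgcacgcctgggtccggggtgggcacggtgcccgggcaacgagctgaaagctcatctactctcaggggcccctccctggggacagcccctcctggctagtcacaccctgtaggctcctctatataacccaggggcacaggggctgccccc
Acta1, skeletal alpha-actin (chr8:123894776-123895025, minus strand): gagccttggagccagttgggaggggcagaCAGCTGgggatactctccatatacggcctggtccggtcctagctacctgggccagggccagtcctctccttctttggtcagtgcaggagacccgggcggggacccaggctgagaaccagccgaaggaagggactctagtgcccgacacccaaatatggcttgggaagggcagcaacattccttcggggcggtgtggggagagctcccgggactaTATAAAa
Myh4, a fast myosin heavy chain (chr11:67237562-67237811, plus strand): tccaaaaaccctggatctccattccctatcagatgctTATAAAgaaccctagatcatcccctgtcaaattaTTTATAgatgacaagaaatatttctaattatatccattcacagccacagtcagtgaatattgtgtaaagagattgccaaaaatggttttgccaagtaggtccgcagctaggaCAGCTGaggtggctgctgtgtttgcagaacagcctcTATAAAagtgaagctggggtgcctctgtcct
Eno3, the muscle enolase (chr11:70656926-70657175, plus strand): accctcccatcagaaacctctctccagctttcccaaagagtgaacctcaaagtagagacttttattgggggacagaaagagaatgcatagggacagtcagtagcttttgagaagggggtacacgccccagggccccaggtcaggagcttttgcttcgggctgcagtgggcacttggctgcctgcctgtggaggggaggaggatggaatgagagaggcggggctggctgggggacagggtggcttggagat

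CAGCTG lay before the start of Ckm, Acta1 and Myh4, and the match of Eno3 lay after its start, at position 39. The RefSeq start used for Ckm lies 6318 bases inside the longer gene of the deposited annotation, and those of the other 3 markers lie 26 to 217 bases from its end. Windows from 250 bases before to 50 bases after the start were matched for 22 of the 32 genes that were higher in all 7 libraries than in any of the 17. CAGCTG was in 13 of these 22 windows (59.1%) and in 15.4% of the 11207 windows of genes that passed the filter on low values. CTANNNNTAG was in 3 of the 22 (13.6%) against 3.04%, and TATAAA in 4 of the 22 (18.2%) against 7.59%. A match gives the letters only and not a bound site. The 32 genes come from the contrast that chose the libraries, and those without a matched window are left out. Nothing is therefore read from the shares side by side.

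Values are read counts scaled by the size factor of their library, and differences are on the log2(value + 1) scale with their standard errors. Recovered reads, in units of 1e6, were 22.1 to 28.9 in the 7 libraries, 19.2 to 37.2 in the 17 and 15.7 to 27.2 at ZT7. Of the 17, 5 libraries (4 of the 7 VSG libraries and 1 of the 10 sham libraries) were high in B cell genes, with a list mean of 8.75 or more on the log2 scale against at most 7.17 in all other libraries, and none of the 7 was. The count of genes lower by 2-fold or more, and the values of Cd79a, Glycam1, Colq and Ucp1, are therefore also given without those 5 libraries. Other lower genes are given with them only.

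Ckm and Myh4 separated the 7 libraries completely. Ckm (ENSMUSG00000030399, chromosome 7, 19404776 to 19422841, mm10) had normalized values of 358, 1969.6, 5412, 302, 8116, 913 and 363. The 17 other libraries lay between 0 and 4.83 with a median of 1.143, and the highest ZT7 library had 3.71. The adjusted difference of Ckm was 8.64 ± 0.59, which is 399-fold; without sham ZT13 replicate 2 it was 7.90. Myh4 (ENSMUSG00000057003, chromosome 11, 67238029 to 67260446) had 735, 3917, 13662, 450.2, 12874, 644 and 1230.3, against 0 to 4.91 in the 17 and at most 9.69 at ZT7. Its adjusted difference of 9.66 ± 0.61 was the highest of all genes tested, and without the same library it was 9.06.

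Acta1 and Eno3 differed less cleanly, because libraries outside the 7 carried both. Acta1, the actin of the thin filament (ENSMUSG00000031972, chromosome 8, 123891767 to 123894736), had 1076, 5310.4, 17149.6, 871, 20067, 4293 and 1221 in the 7 libraries and 52.6 to 1015 with a median of 415 in the 17. VSG ZT13 replicate 3 thus lay inside the range of the 17, although it stood above the 55.6 to 299.9 of the other 3 libraries of its own group. Eno3, a glycolytic enzyme (ENSMUSG00000060600, chromosome 11, 70657202 to 70662513), had 697, 1315, 2948, 974, 3331, 1149.8 and 955 against 319.5 to 1138, and 3 of the 7 overlapped the 17. The adjusted differences were 4.16 ± 0.59 for Acta1 and 1.16 ± 0.33 for Eno3. Without sham ZT1 replicate 4 Acta1 differed by 4.93, and without sham ZT13 replicate 2 Eno3 differed by 0.73, which is under 2-fold. Of 23 genes for which each of the 7 was left out in turn, 11 moved by over 1.5 times: 9 without sham ZT13 replicate 2, all downward, and 3 without sham ZT1 replicate 4, all upward, with Mylpf in both. The mean log2 of the 4 markers was 9.19 in the lowest of the 7 (VSG ZT13 replicate 3) and 5.75 in the highest of the 17.

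**Figure D1:**
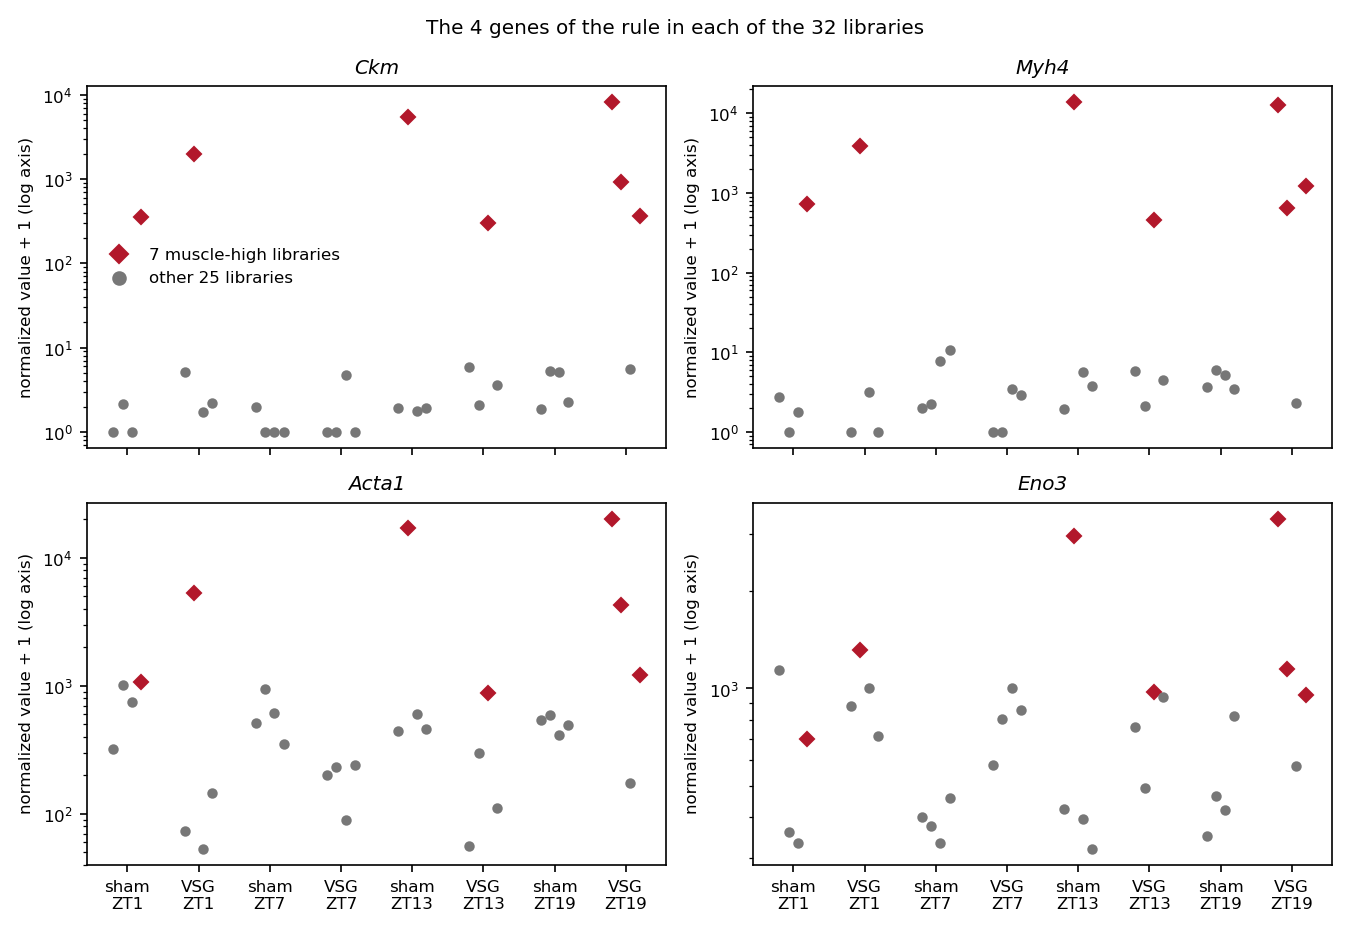
Normalized value + 1 (log axis) of Ckm, Myh4, Acta1 and Eno3 in each of the 32 libraries by group; red diamonds are the 7 muscle-high libraries and grey circles the other 25. Ckm and Myh4 of the 7 reach at least 302 and 450.2 while the other 25 libraries reach at most 4.83 and 9.69; Acta1 and Eno3 overlap.

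Over 15588 genes with a mean of at least 10, 94 (0.603%) were higher by 2-fold or more in the 7 libraries and 32 (0.205%) were higher in all 7 than in any of the 17. In the other direction 325 genes were lower by 2-fold or more (2.08%) and 0 were lower in all 7 than in any of the 17 (0%). These shares come from the contrast that chose the libraries, so nothing is read from them. The mean of 10 was taken over all 32 libraries, so some genes passed only through the 7. Among them were Ckm, Myh4, Myom2, Myot, Ckmt2 and Cacna1s, with means of 1.96, 2.22, 2.03, 0.99, 0.75 and 0.06 in the 17. Such genes count as higher through that filter, so the counts and medians of the muscle lists below are descriptions only. The median difference over all genes was 0.0025. Reads of the 32 genes made up 0.0168% of sham ZT1 replicate 4, 0.0746% of VSG ZT1 replicate 2, 0.265% of sham ZT13 replicate 2, 0.0128% of VSG ZT13 replicate 3, and 0.251%, 0.0469% and 0.0209% of VSG ZT19 replicates 1, 2 and 4. The 17 libraries had 0.00115 to 0.00289% and the ZT7 libraries 0.00151 to 0.00203%. The 95% Wilson interval was 0.0124 to 0.0133% in the lowest of the 7 and 0.263 to 0.267% in the highest; such intervals cover counting error only. Sham ZT13 replicate 2 and VSG ZT19 replicate 1 were thus the richest in muscle RNA, and VSG ZT13 replicate 3 the poorest.

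Of the muscle lists, that of fast fibres was high most uniformly. All 14 listed genes were measured, 13 were higher by 2-fold or more and 11 were higher in all 7 than in any of the 17, with a median difference of 5.33. Atp2a1, the calcium pump of the fast sarcoplasmic reticulum, had 721, 3184, 9414, 323, 8754, 1549.6 and 790.3 in the 7 libraries and 2.18 to 27.6 in the 17 (7.53 ± 0.59). Tnnt3, the fast form of troponin T, had 564, 2192, 10039.6, 387, 8844, 2113 and 711 against 8.72 to 45.3 (6.65 ± 0.56). Actn3, the Z-disc actinin of fast fibres, had 197, 1717, 2429, 173, 5242, 175 and 327 against 2.05 to 13.3 (6.44 ± 0.62). In all 3 genes every one of the 7 stood above every one of the 17, with sham ZT13 replicate 2 and VSG ZT19 replicate 1 at the top.

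Other fast genes differed in their level in the 17. Mybpc2, the fast myosin-binding protein C, had 76.8 to 1832 in the 7 and 0 to 51.3 in the 17 (5.92 ± 0.79), and Myoz1, a Z-disc protein of fast fibres, 40.8 to 1039.8 against 0.855 to 8.46 (5.58 ± 0.59). Pvalb, the calcium buffer parvalbumin, overlapped, with 195, 1067, 4613, 164, 5207, 370.4 and 418 in the 7 and 2.48 to 180.1 in the 17 (5.13 ± 0.80). Casq1, the calcium store protein of the reticulum, also overlapped, with 146 to 1346 against 50.4 to 977 (1.499 ± 0.51). Myl1, an essential myosin light chain, was the 1 listed fast gene under 2-fold, with a median of 1433 in the 7 and 853 in the 17 (0.78 ± 0.22).

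Sarcomere genes, 30 listed and 26 past the filter, had 19 members higher by 2-fold or more and 7 without overlap, with a median difference of 2.37. Tcap, which caps titin at the Z-disc, had 73.9, 228, 2364, 76.8, 864, 304 and 48.1 against 0 to 8 (5.82 ± 0.67). Xirp2, an actin-binding protein of striated muscle, had 26.9, 164, 565, 23.3, 553, 138 and 20.2 against 0 to 12.6 (5.71 ± 0.71). Myom2, a protein of the M-band, had 23.3 to 649 against 0 to 8.77 (5.53 ± 0.64), and Myot, a Z-disc protein, 11.7 to 527 against 0 to 4.11 (5.37 ± 0.63). Titin itself, Ttn, had 109.9 to 3859 against 8.21 to 113 (4.59 ± 0.67), where the lowest of the 7 fell under the highest of the 17.

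At the other end of the sarcomere list, Myom3, another M-band protein, differed by 0.22 ± 0.23 with medians of 461 and 473. Fbxo32, a ubiquitin ligase of muscle wasting, differed by 0.19 ± 0.09 with medians of 432 and 395. Both were thus at similar levels in the 17. The 4 genes under the filter included Trim63, a ligase of the same kind, with 4.48, 10.2, 98.8, 3.89, 34.1, 22.1 and 1.12 in the 7 and at most 0.784 in the 17, and Trim54, with 5.599, 23.5, 112, 2.92, 75.9, 23.9 and 8.96 against at most 0.651; both were named after their values were seen.

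Genes that couple excitation to contraction, 21 listed and 17 past the filter, had 10 members higher by 2-fold or more and 3 without overlap, with a median difference of 1.21. Cacna1s, the voltage sensor of the transverse tubule, had 20.2, 67.4, 198, 8.75, 196, 34.0 and 10.1 in the 7 and at most 1.02 in the 17 (5.36 ± 0.49). Trdn, the triad anchor triadin, had 19.4 to 560.5 against 0.73 to 29.5 (4.01 ± 0.71), and Ryr1, the calcium release channel, 134 to 1256 against 29.8 to 155 (2.05 ± 0.39). Hrc, a calcium-binding protein of the reticulum, had 35.8 to 419 against 2.92 to 35.3 (2.77 ± 0.46) and did not overlap. Pln, a regulator of the cardiac and slow calcium pump, differed by 0.01 ± 0.25 and Asph, an aspartyl hydroxylase with junctional forms, by 0.15 ± 0.10.

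Among 20 genes of energy supply, 7 were higher by 2-fold or more and 4 had no overlap, with a median difference of 0.39. Mb, the oxygen store myoglobin, had 113, 136, 1259, 34.0, 297, 420.0 and 38.1 against 0.73 to 11.0 (5.66 ± 0.49). Ckmt2, the mitochondrial creatine kinase of striated muscle, had 19.04, 60.2, 224, 7.78, 177, 100.2 and 33.6 against 0 to 2.35 (5.13 ± 0.51). Pgam2, the muscle phosphoglycerate mutase, had 53.5 to 898 against 21.1 to 50.04 (2.71 ± 0.45), and Pygm, the glycogen phosphorylase of muscle, 87.5 to 962 against 45.3 to 99.5 (2.07 ± 0.38). Ampd1, the muscle AMP deaminase, had 11.7 to 318 in the 7 but reached 88.9 in 1 of the 17 (4.35 ± 0.94). The glycolytic enzymes Ldha and Pgk1, used by most tissues, differed by -0.04 ± 0.14 and -0.09 ± 0.11.

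**Figure D2:**
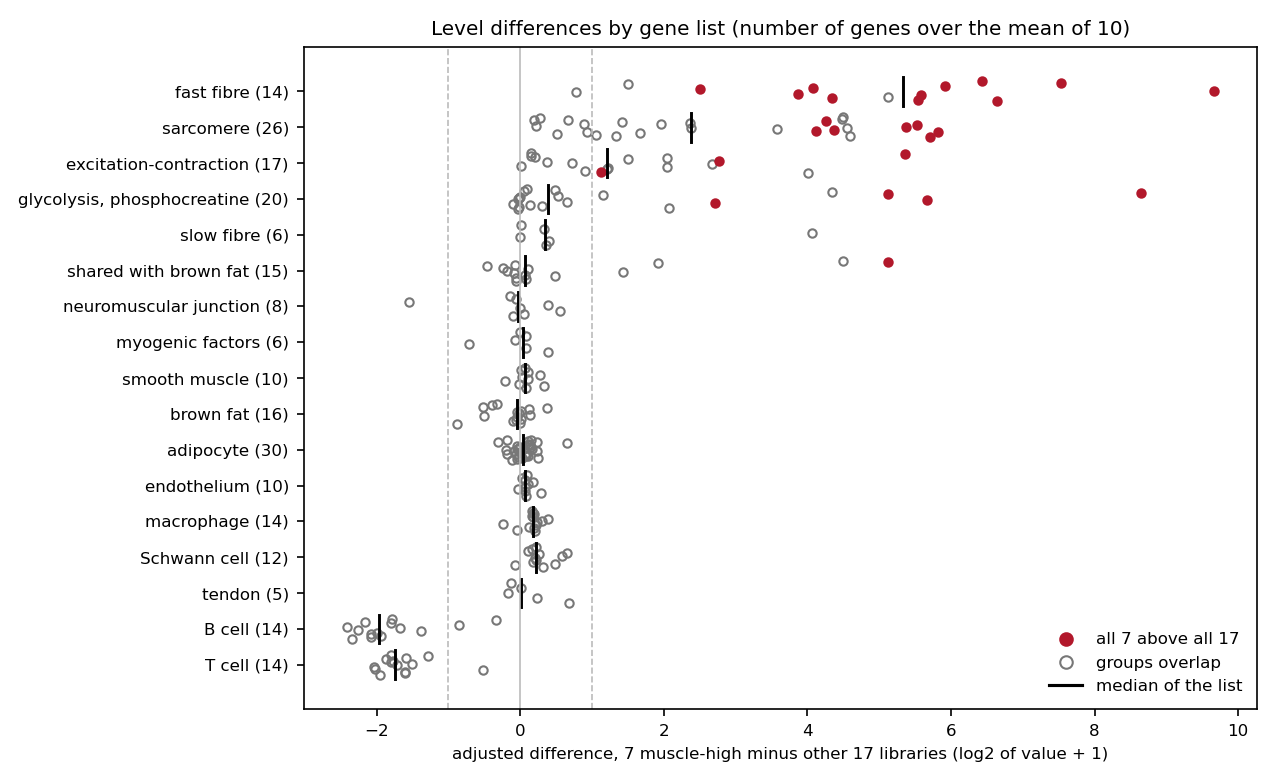
Adjusted difference between the 7 muscle-high and the other 17 libraries (log2 of value + 1) for each measured gene by list; red points are genes with all 7 above all 17, bars are list medians and dashed lines mark 2-fold. The fast fibre list has its median at 5.33, the adipocyte list at 0.04 and the B cell list at -1.97.

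Slow fibre genes mostly differed little. Of 12 listed, 6 passed the filter and 1 of these was higher by 2-fold or more: Mybpc1, the slow myosin-binding protein C, with 81.8, 201, 1039.8, 44.7, 588, 350.2 and 17.9 in the 7 and 0 to 38.7 in the 17 (4.06 ± 0.75). Myh7, the slow myosin heavy chain, was under the filter, at 50.03 in VSG ZT1 replicate 2, 42.7 in VSG ZT19 replicate 1 and 0 in the other 5; the 17 had at most 4.28. Myl2 and Myl3, light chains of slow and cardiac muscle, were highest in the same pair of libraries, with 32.7 and 30.3 for Myl2 and 18.4 and 29.4 for Myl3. In the other 5 libraries Myl2 was at 0 to 2.24 and Myl3 at 0.978 to 3.89. These 3 genes were named after their values were seen. The other 5 that passed had differences of -0.01 to 0.40.

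The label of skeletal muscle was also checked with regulators and with markers of other muscle. Of 14 listed myogenic regulators 10 were in the table and 6 passed the filter, and 0 of these 6 were higher by 2-fold or more, with a median of 0.03 and a range of -0.71 to 0.39. Of the 4 under the filter, Myf6 and Myod1 were picked after their values were seen. Myf6, a myogenic factor kept on in adult fibres, was at 3.36, 5.11, 48.9, 1.94, 23.7, 2.76 and 1.12 in the 7 and at 0 in all 17 and in all 8 ZT7 libraries. Myod1, the founding member of that family, was at 0, 8.17, 13.7, 0, 9.48, 3.68 and 1.12 in the 7 and at 0 in the same 25 libraries. A value near 1 is about a single read, so the low ends carry no more than that. Of the heart list, Gata4, a cardiac factor, was at 0 in all 7, and Tnni3, cardiac troponin I, differed by -0.15 ± 0.27 with 46.0 to 155 against 35.9 to 199. All 10 measured smooth muscle genes lay within 2-fold with a median of 0.07; Synpo2 had the highest difference (0.33 ± 0.19) and Mylk the lowest (-0.21 ± 0.15). Of 8 measured genes of the neuromuscular junction, 0 were higher by 2-fold or more and 1 was lower, Colq, the collagen tail of acetylcholinesterase, with 2.24 to 10.7 against 2.29 to 751 (-1.55 ± 0.99; 0.62 ± 0.32 without the 5 libraries high in B cell genes). Lrp4, the agrin receptor, differed by 0.56 ± 0.18, Chrnb1, a receptor subunit, by -0.06 ± 0.16 and Ache, acetylcholinesterase, by -0.14 ± 0.15. Actc1, the actin of heart and embryonic muscle, had 3.36, 11.2, 48.9, 19.4, 80.6, 13.8 and 23.5 against 1.18 to 33.5 (0.72 ± 0.51); the embryonic and neonatal myosins were not analysed here.

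Some genes outside all lists were high in the same libraries, and others were highest in a library poor in muscle RNA. Eef1a2, the elongation factor form of muscle and neurons, had 72.8, 234, 949.8, 43.8, 711, 192 and 39.2 against 0 to 32.9 (5.03 ± 0.67). Apobec2, a muscle member of the deaminase family, had 85.1, 129.7, 1158, 31.1, 342, 326 and 15.7 against 0.879 to 19.7 (4.42 ± 0.68). H19, an imprinted noncoding RNA, had 174, 247, 204, 70.0, 497, 114 and 22.4 against 18.1 to 82.5 (1.64 ± 0.44). Smyd1, a methyltransferase of striated muscle, differed by 1.20 ± 0.31. Flnc, the filamin of muscle, had 1172.5, 547, 698, 424, 351, 276 and 188 against 131 to 400 (1.10 ± 0.26). Its highest value was in sham ZT1 replicate 4, while VSG ZT19 replicate 1, rich in muscle RNA, lay inside the range of the 17. Akr1c18, a steroid dehydrogenase, had 1961, 596, 58.7, 165, 23.7, 61.6 and 21.3 against 21.4 to 314 (1.07 ± 0.66), so its highest value was in sham ZT1 replicate 4, a library poor in muscle RNA among the 7.

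Genes of fat itself did not separate the sets. All 30 measured adipocyte genes lay within 2-fold, from -0.31 to 0.65 with a median of 0.04, and the 16 measured brown fat genes did so with a median of -0.04. Agt, angiotensinogen, had the highest difference among the adipocyte genes (0.65 ± 0.45), with 231 to 1784 in the 7 and 74.4 to 1113 in the 17. Adrb3, the lipolytic receptor, had the lowest (-0.31 ± 0.29), with 1562 to 15139 against 1499 to 15762. Lep, leptin, had 38692 to 133416 against 21198 to 161584 (0.24 ± 0.34), and Ucp1, the uncoupling protein of brown fat, 6.81 to 206 against 2.42 to 1352 (-0.88 ± 1.09). Without the 5 libraries high in B cell genes Ucp1 differed by -1.68 ± 1.32, which is past 2-fold. Of 15 genes that muscle shares with brown fat, 4 were higher by 2-fold or more: Ckmt2, Actn2 (4.49 ± 0.90), Cox6a2 (1.91 ± 0.51) and Fabp3 (1.43 ± 0.84). Cox8b, a cytochrome oxidase subunit of both tissues, had the lowest difference of the 15 (-0.46 ± 0.57). Endothelial, Schwann cell and tendon lists each had 0 members past 2-fold.

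B and T cell genes were lower in the 7 in the comparison with all 17. B cell genes were lower by 2-fold or more in 12 of 14 members and T cell genes in 13 of 14, with medians of -1.97 and -1.74. Of 11 neutrophil genes 4 were lower by 2-fold or more, and of 14 macrophage genes 0 were, with a median of 0.18. Cd79a, a part of the B cell receptor, had 23.5 to 44.8 in the 7 and 19.5 to 7672 in the 17 (-2.42 ± 0.97), and Glycam1, a ligand made by lymph node venules, 0 to 3.06 against 0 to 2470.5 (-3.53 ± 1.5). Without the 5 libraries high in B cell genes, Cd79a differed by -0.38 ± 0.26 and Glycam1 by -0.31 ± 0.56, and 21 genes were lower by 2-fold or more in place of 325. Without those 5, Ckm differed by 8.91 ± 0.76, Myh4 by 9.91 ± 0.78 and Acta1 by 3.64 ± 0.73.

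The 7 libraries differed in the myosins they held. Values per kilobase of exon gave Myh4 a share of 82.1% in sham ZT1 replicate 4, 83.4% in VSG ZT1 replicate 2, 85.5% in sham ZT13 replicate 2, 67.8% in VSG ZT13 replicate 3, and 90.7%, 25.7% and 93.0% in VSG ZT19 replicates 1, 2 and 4, among the sum of Myh1, Myh2, Myh4 and Myh7. VSG ZT19 replicate 2 stood apart: Myh1, the chain of type IIx fibres, held 71.3% there and 5.13 to 28.01% in the other 6. Its level per kilobase was 297 for Myh1 and 107 for Myh4 in that library. Myh2, the chain of type IIa fibres, held 0.944 to 4.75% of the sum in the 7. In the 17 libraries the remaining signal was mostly Myh1, at 44.7 to 79.5%, and Myh2, at 16.9 to 50.7%, with normalized values of 8.46 to 64.3 for Myh1 and 6.04 to 27.8 for Myh2. These genes are near-identical copies, and the counting of reads shared between them is not described in the sources used here.

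**Figure D3:**
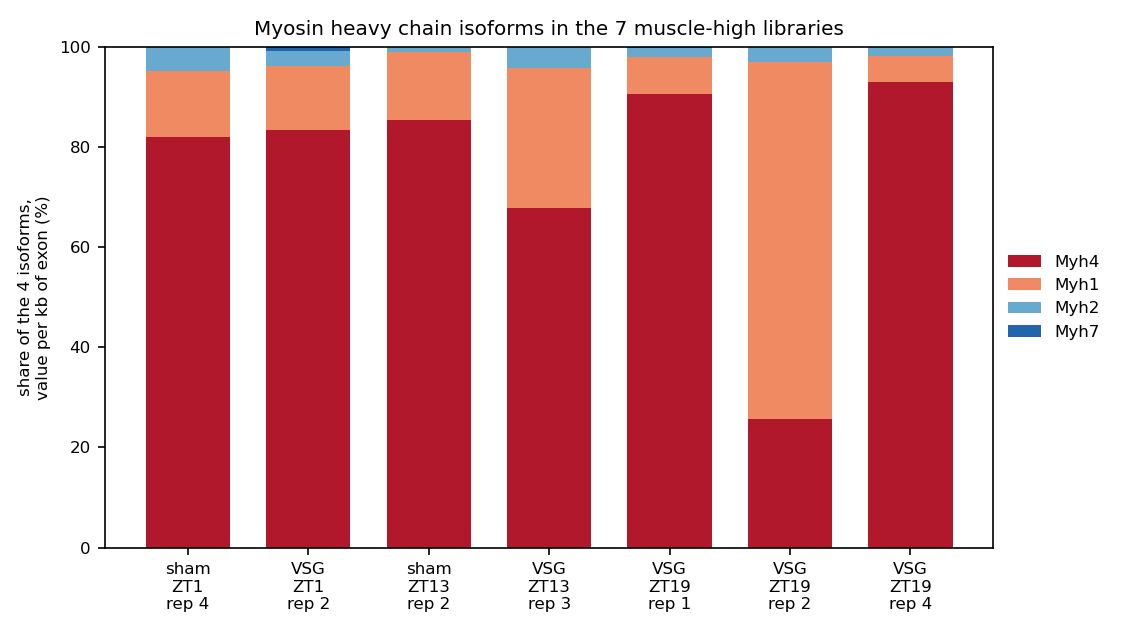
Share of Myh4, Myh1, Myh2 and Myh7 in the sum of the 4 myosin heavy chain values per kilobase of exon (%), for each of the 7 muscle-high libraries. Myh4 leads in 6 libraries and Myh1, at 71.3%, in VSG ZT19 replicate 2.

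Ratios to Ckm in the same library show which genes varied beyond the amount of muscle RNA. Per 100 units of Ckm, Mylpf, the fast regulatory light chain, was at 56.3 to 94.4 in the 7 libraries, the narrowest range on the log2 scale of the 31 other genes that did not overlap. Myh1 spanned 13.5 to 207, with the highest ratio in VSG ZT19 replicate 2. Actn3 was at 19.1 in VSG ZT19 replicate 2 and at 44.9 to 90.1 in the other 6, and Mb was at 46.0 there and at 3.66 to 31.6 in the others. That library was thus the highest of the 7 for the oxygen store and the lowest for the fast actinin. Smpx, a small muscle protein, was at 1.04 and 1.04 in VSG ZT1 replicate 2 and VSG ZT19 replicate 1, the pair with Myh7, and at 1.85 to 7.54 in the other 5. Tmem38a, a channel of the reticulum, had the widest spread of log2 ratios, and the 17 libraries already held 126 to 177 of it.

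Sham ZT13 replicate 2 led in a further set of low genes. Mstn, the growth inhibitor myostatin, was at 282 there and at 1.12 to 16.5 in the other 6. Csrp3, a Z-disc protein, was at 437 against 1.12 to 95.6, and Sln, a small regulator of the calcium pump, at 156 against 0 to 47.8. VSG ZT19 replicate 1, whose Ckm was higher, had 6.64 of Mstn, 35.1 of Csrp3 and 14.2 of Sln. The genes singled out for their ratios and these 3 were picked after their values were seen.

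**Figure D4:**
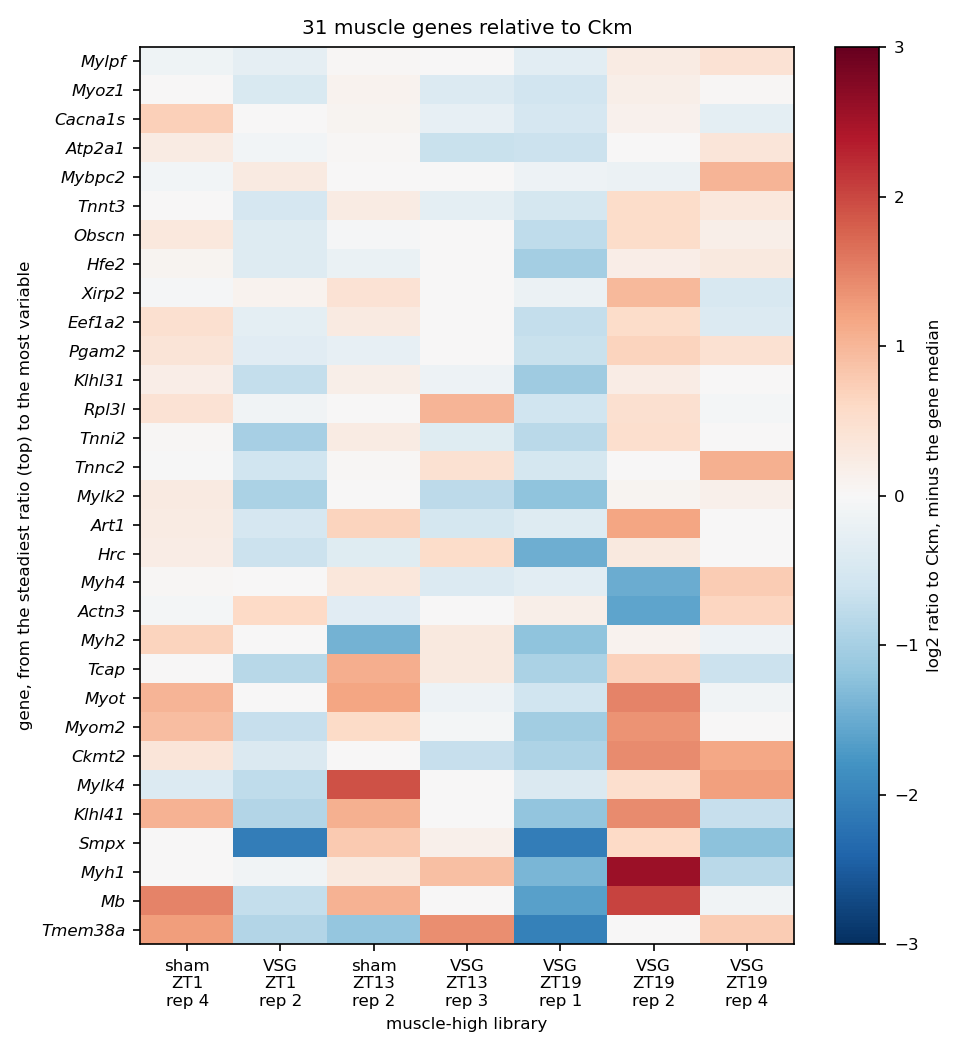
Log2 ratio of 31 genes to Ckm in each of the 7 muscle-high libraries, minus the median of the gene over the 7 (colour). Rows run from the steadiest gene, Mylpf, to the most variable, Tmem38a; VSG ZT19 replicate 2 stands out for Myh1, with 207 per 100 units of Ckm.

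List means were set against the mean of the fast fibre list, which holds the marker Myh4, so these correlations are descriptions without a p-value. Among the 7 libraries the slow fibre mean had a Pearson r of 0.968 and a Spearman rho of 0.893 with it, and without the 2 libraries farthest from the median r was 0.905. In the other 25 libraries the same relation had r = 0.113 and rho = 0.158. The slow fibre mean holds 6 genes, of which only Mybpc1, at 17.9 to 1039.8 in the 7, was higher by 2-fold or more. The relation without Mybpc1 is not given here, and Myh7, Myl2 and Myl3 are not in the mean. The adipocyte mean had r = -0.00708 among the 7 and r = -0.447 among the 25. The points share the scaling of their library.

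Labels and depth that the rule did not use were tested. Of 12 VSG libraries at the 3 times 5 were among the 7, and of 12 sham libraries 2 were (Fisher's exact test, two-sided, p = 0.371). Weight loss, printed without a unit because the labels have none, was 8.96 and 3.55 in the 2 sham animals and 19.57, 18, 21.16, 10.59 and 11.05 in the 5 VSG animals. Beyond the difference that their groups of surgery and time give, the 7 exceeded the 17 by 0.952 (exact permutation test within groups over 1024 arrangements, two-sided, p = 0.470). Recovered reads in units of 1e6 were 25.4 ± 2.18 (SD, n = 7) against 28.1 ± 5.39 (SD, n = 17), and the difference within groups of -2.88 had a two-sided exact permutation p of 0.104. All 3 comparisons missed the threshold of 0.05.

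The last comparison asked how VSG against sham reads in muscle genes with and without the 7 libraries, since surgery was not used to choose them. Muscle levels were, and their removal took 5 VSG and 2 sham libraries, so muscle gene values in the 17 or with a term for the 7 are not independent of that choice and are described without a p-value. With all 24 libraries limma called 1953 genes higher (12.5% of all genes tested) and 2525 lower (16.2%) after VSG at an adjusted p under 0.05. Without the 7 it called 1310 higher (8.40%) and 1803 lower (11.6%), and with a term for the 7 it called 1921 (12.3%) and 2439 (15.6%). Calls of the first 2 fits shared with the same sign numbered 2915, which is 65.1% of the first set and 93.6% of the second. The fit without the 7 has fewer libraries to call from, and the part of that in the lost calls was not tested. With the term and all 24 libraries, 3996 calls were shared with the first set. That is 89.2% of the first set and 91.7% of the set with the term. Of 83 measured skeletal muscle genes, 1 rose and 10 fell with all 24 libraries. Past the same threshold, 3 were higher and 17 lower without the 7, and 1 was higher and 15 lower with the term, from which nothing is read. Rescaling by the sum over genes outside the muscle lists moved the split of all calls to 3577 higher and 1431 lower with all 24 libraries and to 2503 and 1005 without the 7. Under that rescaling the median of all genes in the 17 moved from 0.01 to 0.14, and 7 muscle genes were higher and 12 lower past the threshold. The shift of the split was thus present with and without the 7. That rescaling replaced the size factors by a sum of values and left out the muscle genes at once. The part of each in the shift was not tested. Rescaling by the trimmed mean of M-values (TMM) kept the split near that of the deposited values. It gave 1841 higher and 2662 lower with all 24 libraries and 1254 and 1936 without the 7.

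Acta1, a marker that chose the 7, did not overlap between VSG and sham in the 17 libraries that remained. It had a lowest, median and highest value of 52.6, 109 and 299.9 after VSG (n = 7) and of 321, 514 and 1015 after sham surgery (n = 10), a difference of -2.26 ± 0.34. With all 24 libraries the difference was -0.72 ± 0.88 and was not called (limma adjusted p = 0.564). In that 24-library comparison its sign turned to 0.58 without the 5 libraries high in B cell genes, with the 7 kept (limma adjusted p = 0.680). On whole reads of the 24 libraries it turned to 0.51 with edgeR and with DESeq2 (adjusted p = 0.801 and 0.691). The ZT7 libraries, of which none was among the 7 or in these fits, had 87.8, 199.8, 232 and 241 after VSG and 351, 514, 609.6 and 950.1 after sham surgery, without overlap. High B cell genes were found in 4 of the 7 VSG libraries and in 1 of the 10 sham libraries that remained, and in none at ZT7, and their part in the difference was not tested.

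Xirp2, Casq1, Pvalb and Mb were also lower after VSG in the 17 libraries. Xirp2 was at 0 to 0.86 after VSG and 0 to 12.6 after sham surgery (-2.42 ± 0.45), and Mb had medians of 1.21 and 6.11 (-1.39 ± 0.33). Both are at a few reads and passed the filter only through the 7, since their means in the 17 were 3.48 and 4.198. Casq1 had medians of 87.2 and 278 (-1.82 ± 0.40), and Pvalb of 17.2 and 68.2 (-2.03 ± 0.63). With all 24 libraries these 4 were not called, with limma adjusted p of 0.141 to 0.991. In that 24-library comparison the signs of Xirp2, Pvalb and Mb turned without the 5 libraries high in B cell genes, with the 7 kept. The differences became 1.49, 1.44 and 1.25 (limma adjusted p = 0.413, 0.410 and 0.480). Of the 7 kept there, 5 are VSG libraries. At ZT7, Pvalb had 6.87, 16.1, 20.01 and 22.2 after VSG and 57.1, 102, 117 and 135 after sham surgery, without overlap. Casq1 overlapped at ZT7, with 91.5, 118, 149.6 and 452 after VSG and 411, 472, 499 and 638 after sham surgery.

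Smaller differences in the 17 were those of Ldb3, a Z-disc protein (-0.81 ± 0.19), Srl, sarcalumenin (-0.37 ± 0.12), Des, the intermediate filament desmin (0.42 ± 0.14), and Nrap, an actin-binding protein (1.21 ± 0.40). Of the 8 genes lower past the threshold in the 17 and not called with all 24, 5 had all 4 VSG libraries below all 4 sham libraries at ZT7, where 9.22% of all genes tested did. The 8 were picked as lower after VSG and all genes were not, so nothing is read from setting these side by side. The share at ZT7 among all genes lower in the 17 is not given here. A call in 1 fit and not in the other does not show that the fits differ, and that difference was not tested.

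Ckm and Myh4 were not called with all 24 libraries. VSG minus sham was 2.60 ± 1.62 for Ckm (limma adjusted p = 0.233) and 1.93 ± 1.80 for Myh4 (limma adjusted p = 0.436). Without the 7 that they chose, the differences were 0.94 ± 0.37 and -0.22 ± 0.39.

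**Figure D5:**
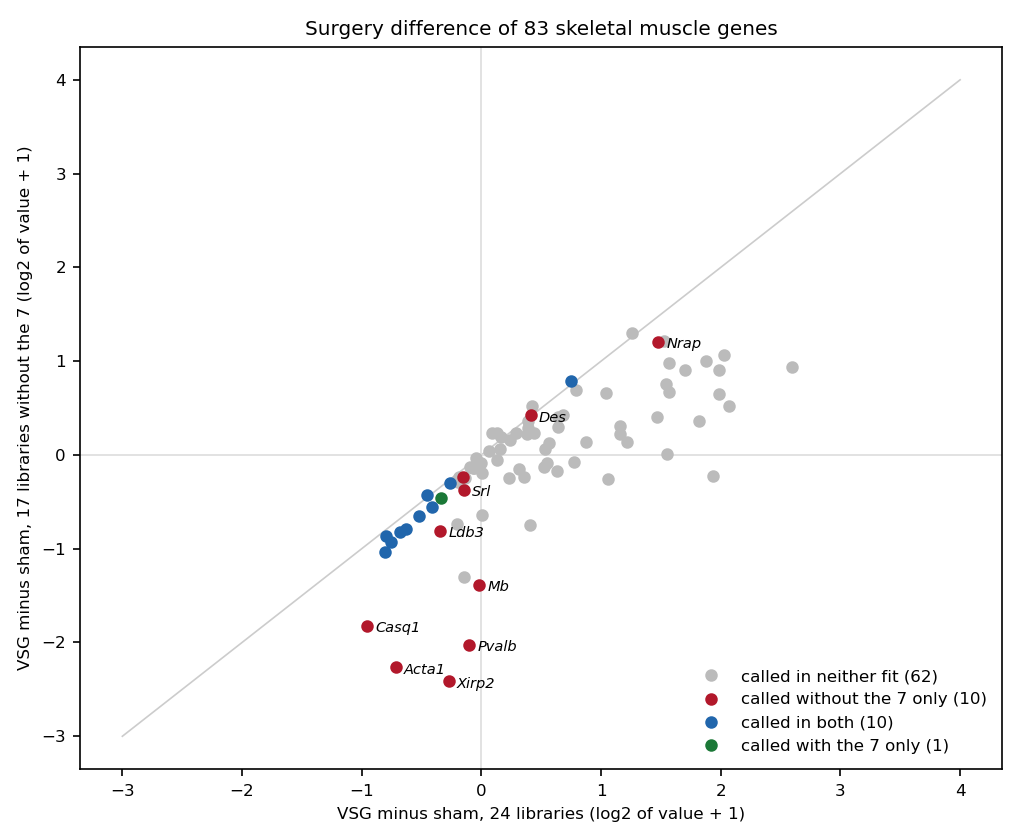
VSG minus sham difference (log2 of value + 1) of the 83 measured skeletal muscle genes with all 24 libraries (horizontal axis) and in the 17 without the 7 (vertical axis); names mark genes called only without the 7, where given, and colours give the limma call at an adjusted p of 0.05, which without the 7 is a description, with 10 genes called only without the 7, 10 in both, 1 only with the 7 and 62 in neither. Acta1 lies at -0.72 and -2.26, and Xirp2 at -0.27 and -2.42.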

How the data were processed

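RNA of subcutaneous white fat was sequenced in 32 mice, after Trizol extraction and with TruSeq version 2 libraries per the labels' protocols. The build mm10 and the tools DESeq2 1.24.0, featureCounts 1.5.0-p1 and STAR 2.5.2a are named, per the submitters' processing notes; their roles, the strand setting and the treatment of shared reads are not stated there, so overlapping, antisense and near-identical genes are uncertain. The deposited signal values are gene counts that the authors scaled by library size factors: 100% of the values in each library were whole multiples of 1 step (tolerance 0.001), which gave back whole reads. The design had allowed for either unit. It lists 18124 genes (15171 are protein coding), and 0 sample columns were left unused. Replicates were separate animals numbered by their order among the samples, and read counts of replicate pairs differed by far more than sampling noise.

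A mean of at least 10 was asked of a gene (15588 passed). The main model was limma 3.58.1 in R 4.3.3 on log2(value + 1), with surgery and time as terms. VSG against sham used its variance trend and Benjamini-Hochberg adjustment over all genes at 0.05. For the 7 against the 17, the SE of a gene came from its own residual spread, without the trend. For the 7 libraries against the 17, and for muscle genes after surgery without the 7, only the difference and its SE are read, and correlations with the fast fibre list are given without the planned tests, since muscle levels chose the 7. Exact permutation tests and Fisher's test used scipy 1.17.1 and numpy 2.4.6. Levels per kilobase used exon lengths of the GENCODE annotation, and upstream sequences came from RefSeq. Whole reads were also tested with DESeq2 1.42.0 and edgeR 4.0.16 as alternatives. The scripts were tested on simulated data.

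Named genes were the 4 markers; in each muscle list up to 6 with the largest and 2 with the smallest difference; in other lists up to 3 of each; over all genes with a mean of at least 50, the 15 highest, the 10 lowest and the 10 highest in no list; and genes whose surgery call changed without the 7 libraries. Not all are printed, 1 called gene is not reported here, and genes named outside this rule are marked in the text. The members and the 26 gene lists were chosen with earlier results of these data known.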

Additional observations from a re-analysis of the deposited data

Results flagged for a closer look

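Of 42 groups of values checked for a sample far from the others, 4 held one. For separate checks chance gives about 1 in 20, but the Myh1 and Myh4 shares are parts of the same sum. The 4 are therefore not separate and are not set against that rate. Among the 7 muscle-high libraries, VSG ZT19 replicate 2 had a Myh1 share of the myosin heavy chain level of 71.3%, with 5.13 to 28.01% in the other 6, and a Myh4 share of 25.7%, with 67.8 to 93.0% in the other 6. The Myh7 share was 0.744% in VSG ZT1 replicate 2, 0.210% in VSG ZT19 replicate 1 and 0 in the rest of the 7. Weight loss in the sham ZT1 group was 8.96 in replicate 4, which is 1 of the 7, and 2.15 to 2.63 in the other 3 animals.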

How the results depend on the processing

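Genes higher by 2-fold or more in the 7 libraries numbered 94, and 180 without a filter on low values, 39 at a mean of at least 50 and 144 with a mean for each group. Genes lower by 2-fold or more numbered 325, and 550 without a filter, 147 at a mean of at least 50, 15 with the B cell list mean as a covariate and 21 once the 5 B-cell-rich libraries were left out, an alternative chosen after seeing the data. Genes with all 7 above the 17 numbered 32, and 16 at a mean of at least 50. Leaving out each of the 7 in turn gave 92 to 105 higher, 259 to 388 lower and 32 to 42 without overlap.

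For VSG against sham with 24 libraries, rescaling outside the muscle lists gave 3577 higher and 1431 lower genes, and TMM rescaling 1841 and 2662. Omitting the B-cell-rich libraries, chosen after seeing the data, gave 1629 lower. On the recovered whole reads edgeR called 2058 higher and 2390 lower, and DESeq2 2193 and 2758. Leaving out each library gave 1554 to 2453 higher and 2094 to 2922 lower. Without VSG ZT19 replicate 1, Casq1 was past the threshold (-1.24). Without sham ZT13 replicate 2, Des, Nrap and Eno3 were (0.59, 2.07 and 1.04). Both libraries are among the 7 chosen by muscle levels, and Eno3 is a marker, so these values are descriptions without a p-value. The correlation of fast and slow fibre means was 0.905 without the 2 farthest libraries. Of 227 alternative values of single genes in the 7 against the 17, 223 moved by less than the spread; a pseudocount of 5 lowered Ckm to 7.37, Myh4 to 8.30, Mb to 4.58 and Klhl31 to 3.30. The causes were not tested. No paired analysis was possible because replicate numbers only name samples in order and pair no animals across groups. Genes with values of a few reads are limited by depth.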
